A study of Homo sapiens with 24 samples.

Results

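DUS2L knockout clones of HEK293T cells, a human embryonic kidney line, were compared with unedited cells of the same line for the abundance of their transfer RNAs. The members were all nuclear and mitochondrial rows of the authors' 2 comparison tables for DUS2L, which come to 283 isodecoder entries and 71 anticodon families, and rest on 9 of the 24 libraries of the series. Of the 283 entries, 261 were nuclear and 22 mitochondrial, and of the 71 families 49 were nuclear. Isodecoders are tRNAs that share an anticodon and differ elsewhere, and a family here pools all isodecoders of 1 anticodon. The groups were wild-type cells, the DUS2L knockout clone 1-8 and the DUS2L knockout clone 2-1, with 3 libraries each. No drug was given. Each knockout group is 1 clone, and how the gene was edited is not given in the sources used here, so that a trait of the clone and a trait of the lost gene cannot be told apart. Nothing in the labels tells whether libraries of 1 group stem from different cultures, and the p-values then reflect only variation between libraries, which may be technical. The authors' tables call the clones #1 and #2 without saying which label each stands for, and these names are kept. They do not say either which of the 2 wild-type sets of the series was used, and it is taken to be the first. The loss of DUS2L and the identity of the cells were not checked here, since the tables hold tRNA rows only.

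Dihydrouridine is a uridine whose ring has lost its double bond, which makes the base non-planar and keeps it from stacking. Dihydrouridine synthases put it into tRNA, and most copies lie in the D loop, which is named after it and packs against the T loop to form the elbow of the folded molecule. DUS2L, also called DUS2, makes the dihydrouridine at position 20, while DUS1L acts on other D loop positions and DUS3L on the variable loop. A tRNA without a uridine at position 20 has no base there for the enzyme to reduce. The change of a base by DUS2L was not measured in these tables, which count reads per tRNA.

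To show what the enzyme meets, genomic copies of tRNAs described below are printed 5′ to 3′ from reference sequence on GRCh38, with position 20 and the anticodon in capitals and T standing for U. They were read from GENCODE v29 transcripts or RefSeq promoter windows that overlap the tRNA gene. Position 20 was taken as the base after the last GG of a D loop that is closed by its paired stem. Of the 13 nuclear copies that could be read, 7 are shown, chosen after their values were seen so that each base found at position 20 is represented. tRNA-Arg-TCT-1-1 is printed with its intron.
tRNA-Asn-GTT-6-1 (chr1:143735920-143735993, strand minus): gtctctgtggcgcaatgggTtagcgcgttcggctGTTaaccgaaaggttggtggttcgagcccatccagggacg
tRNA-Asn-GTT-4-1 (chr1:16889677-16889750, strand plus): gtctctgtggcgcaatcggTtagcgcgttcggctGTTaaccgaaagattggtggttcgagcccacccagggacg
tRNA-Gln-TTG-2-1 (chr6:28589379-28589450, strand plus): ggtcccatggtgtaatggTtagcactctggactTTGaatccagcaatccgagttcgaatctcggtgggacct
tRNA-Thr-TGT-6-1 (chr5:181191687-181191758, strand minus): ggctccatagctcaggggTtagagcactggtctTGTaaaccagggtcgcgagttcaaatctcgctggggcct
tRNA-Glu-TTC-4-1 (chr1:16535279-16535350, strand minus): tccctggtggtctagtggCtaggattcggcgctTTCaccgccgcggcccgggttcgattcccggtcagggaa
tRNA-Arg-TCT-1-1 (chr1:93847573-93847657, strand plus): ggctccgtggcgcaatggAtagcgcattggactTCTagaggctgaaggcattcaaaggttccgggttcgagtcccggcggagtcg
tRNA-Phe-GAA-1-5 (chr13:94549650-94549722, strand minus): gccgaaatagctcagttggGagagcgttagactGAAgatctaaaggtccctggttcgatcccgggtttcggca

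The first 4 carry T at position 20, tRNA-Glu-TTC-4-1 carries C, tRNA-Arg-TCT-1-1 carries A and tRNA-Phe-GAA-1-5 carries G. Sequence could be read for 13 of the 261 nuclear entries, so the entries were not divided by this base. Levels of tRNA-Asn-GTT-6-1, which has T, went from 3280.2 in the wild type to 419 in clone #1 and 565 in clone #2 (normalised counts), and those of tRNA-Glu-TTC-4-1, which has C, from 10091 in the wild type to 3531 in clone #1 and 4559 in clone #2. Both fell in both clones, with adjusted p of 1.06e-12 and 9.80e-10 for the first and 0.00133 and 0.0170 for the second. For tRNA-Gln-TTG-2-1, with T, the levels in wild type, clone #1 and clone #2 were 2389, 3292 and 5338, and it rose in clone #2 alone (adjusted p = 0.0104, against 0.343 in clone #1). A link with the base at position 20 was not tested, and copies chosen after their values were seen cannot show one. The levels of tRNA-Phe-GAA-1-5, with G, were 41708, 21746 and 30126 and did not pass in either clone (adjusted p = 0.303 and 0.629). tRNA-Arg-TCT-1-1, with A, had levels of 111665, 39567 and 52321 and fell in both clones (adjusted p = 0.00444 and 0.0424), as did tRNA-Asn-GTT-4-1, at 176, 65.9 and 47.9 (adjusted p = 0.0423 and 0.00589). tRNA-Thr-TGT-6-1, with T, stood at 130.5, 23.0 and 66.4 and fell in clone #1 alone (adjusted p = 0.00109 and 0.208). Of the copies that fell in both clones, tRNA-Asn-GTT-6-1 stood at -2.97 and -2.54 on the log2 scale and tRNA-Asn-GTT-4-1 at -1.42 and -1.88. For tRNA-Glu-TTC-4-1 the values were -1.51 and -1.15 and for tRNA-Arg-TCT-1-1 -1.50 and -1.09. The medians over all nuclear isodecoders were -1.02 and -0.55.

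Every level given here is a mean over 3 libraries in normalised counts, recovered from the authors' mean over the 9 libraries and their log2 fold changes, and the tables give no value per library. Levels are not divided by length, tRNAs being of similar length, and a change of reads can come from the amount of a tRNA or from how far reverse transcription reads through its modified bases, which cannot be told apart here. A p is called adjusted after the Benjamini-Hochberg method over all rows of the table with a p, and passes below 0.05. Recovered levels summed to 3105010 in the wild type, 2011080 in clone #1 and 2833430 in clone #2. Fold changes were not centred on the typical tRNA, and the median nuclear isodecoder lay at -1.02 in clone #1 and -0.55 in clone #2 on the log2 scale. Of the 3 E. coli tRNAs added as spike-ins, those for lysine and phenylalanine did not pass, and the one for tyrosine was lower in both clones, at 17924, 9446 and 4868 for wild type, clone #1 and clone #2. Both clones were set against the same wild-type libraries, and the DUS1L table used these libraries too. Its recovered wild-type levels stood in a constant ratio to those used here (SD of the log2 ratio 0.0193 over 183 isodecoders), whereas for the DUS3L table that SD was 1.91 over 138 isodecoders.

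Among anticodon families, more fell than rose. Of the rows with a p, which are 71 with the spike-ins, 19 (26.8%) were lower than wild type in clone #1 and 6 (8.45%) higher. In clone #2, 18 (25.4%) were lower and 12 (16.9%) higher, and 1 lower row in each clone was a spike-in. Relative to the median nuclear family, 19 rows were higher against 3 lower in clone #1 and 15 against 8 in clone #2, so directions below are those of the authors' scaling unless centred values are given. Of the 49 nuclear families, 15 fell and 4 rose in clone #1, while 11 fell and 10 rose in clone #2. Families without a p were Met-CAT, Thr-AGT and Thr-TGT.

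Ser-GCT, the serine tRNA that reads AGC and AGU codons, stood lowest in both clones, going from 6935 in the wild type to 953 in clone #1 and 819.6 in clone #2. In the authors' deposited table its log2 fold changes were -2.86 ± 0.72 and -3.08 ± 0.72 (SE), with adjusted p of 9.56e-04 and 2.06e-04. SeC-TCA, the tRNA that inserts selenocysteine at recoded UGA codons, went from 3475 in the wild type to 786 in clone #1 and 583 in clone #2, or -2.14 ± 0.49 and -2.58 ± 0.49 in the authors' deposited table (adjusted p = 2.11e-04 and 4.94e-06). Both clones lay far below the wild type for each of these tRNAs, and close to each other.

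Asn-GTT was more abundant than both. It decodes asparagine and carries the modified base queuosine at the anticodon's starting position, and its level went from 48138 in the wild type to 9498 in clone #1 and 13293 in clone #2. The authors' deposited table gave it -2.34 ± 0.41 and -1.86 ± 0.41 (adjusted p = 3.22e-07 and 9.16e-05), and it stayed lower after centring on the median nuclear family, at -1.24 and -1.41. Leu-CAG, which reads the common leucine codon CUG, went from 3471 in the wild type to 701 in clone #1 and 854 in clone #2 (adjusted p = 3.88e-05 and 2.24e-04). For Leu-CAA, which reads UUG, the levels were 7243, 2216 and 1968 (adjusted p = 0.00128 and 2.06e-04).

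Decreases that passed in both clones were also seen for proline, alanine, arginine and glutamate tRNAs. Pro-AGG levels were 1012, 248 and 239 in wild type, clone #1 and clone #2, and those of Ala-TGC were 17183, 4450.3 and 6669. Arg-TCT, which reads AGA, went from 167399 in the wild type to 51299 in clone #1 and 66358 in clone #2, with -1.71 ± 0.50 and -1.33 ± 0.50 in the authors' deposited table and adjusted p of 0.00387 and 0.0245. Glu-CTC, which reads GAG, went from 67509 in the wild type to 28067 in clone #1 and 29797 in clone #2 (adjusted p = 0.0118 and 0.0157). Relative to the median nuclear family (-1.10 and -0.45), the values of these 4 families were -0.93 and -1.63 for Pro-AGG, -0.85 and -0.92 for Ala-TGC, -0.61 and -0.89 for Arg-TCT and -0.17 and -0.73 for Glu-CTC. After centring, the families that passed as lower were Asn-GTT, Leu-CAG and Ser-GCT in clone #1, and in clone #2 these with Leu-CAA, Pro-AGG, SeC-TCA, Ser-AGA and the tyrosine spike-in. No nuclear family that fell in both clones changed sign on centring.

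Families that fell in clone #1 alone were Ala-AGC, Ala-CGC, Arg-ACG, Arg-CCG, Arg-CCT and Pro-CGG. The most abundant of them in the wild type, Arg-CCT, which reads AGG, had levels of 236038, 56999.8 and 101050 in wild type, clone #1 and clone #2 (adjusted p = 0.00369 and 0.0799), and Arg-ACG, which reads CGU and, after its A is deaminated, further CGN codons, 220845, 81287 and 178259 (adjusted p = 0.0328 and 0.670). Their centred values were -0.95 and -0.78 for Arg-CCT and -0.34 and 0.14 for Arg-ACG. Leu-AAG and Ser-AGA fell in clone #2 alone, at 30635, 10688 and 9233 for Leu-AAG and 619.9, 289.7 and 182 for Ser-AGA (adjusted p = 0.0719 and 0.0374, and 0.0610 and 0.00158). Passing in 1 clone alone does not show a difference between the clones, whose test is given below.

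Nuclear families that rose in both clones were Tyr-GTA, Leu-TAA, Ser-TGA and Tyr-ATA. Tyr-GTA, the main tyrosine tRNA, whose genes carry introns, went from 992 in the wild type to 2183 in clone #1 and 3618 in clone #2. In the authors' deposited table this was 1.14 ± 0.43 and 1.87 ± 0.42, with adjusted p of 0.0310 and 1.57e-04. Leu-TAA, which reads UUA, went from 620.4 in the wild type to 1399 in clone #1 and 1803 in clone #2 (adjusted p = 0.0254 and 0.00150), and Ser-TGA, which reads UCA, from 647 in the wild type to 1548 in clone #1 and 2232 in clone #2 (adjusted p = 0.0339 and 0.00150). All 3 were at under 1000 normalised counts in the wild type, and above it in both clones. Tyr-ATA, a family of 1 entry, was near 0 in the wild type and reached 292 and 426 in the clones, so no fold is given for it.

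Initiator methionine tRNA (iMet-CAT), which starts translation, rose in clone #2 and not in clone #1. Its levels were 4309, 4598 and 10041 in wild type, clone #1 and clone #2, with log2 fold changes of 0.09 ± 0.44 and 1.22 ± 0.44 in the authors' deposited table and adjusted p of 0.842 and 0.0187. The direct difference between the clones had an unadjusted p of 0.00997 and an adjusted p of 0.278, so it did not pass. Centred on the median nuclear family, iMet-CAT passed as higher in both clones, at 1.19 and 1.67. Elongator methionine tRNA, Met-CAT, had levels of 151992, 39365 and 59267 and no p. Other families higher in clone #2 alone were Gln-TTG, Gly-GCC, Gly-TCC, Ile-AAT and Ile-GAT, with adjusted p in clone #1 from 0.0610 to 0.579. After centring on the median nuclear family, all of these passed as higher in both clones. Their centred values were 1.51 and 1.57 for Gln-TTG, 2.05 and 2.26 for Gly-GCC and 1.99 and 1.40 for Gly-TCC. For Ile-AAT they were 1.49 and 2.04, and for Ile-GAT 2.69 and 2.57. No family differed between the clones at the threshold (0 of 70 tested, 0%), by a Wald test on the recovered dispersion, while 5 had an unadjusted p below 0.05.

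**Figure D1:**
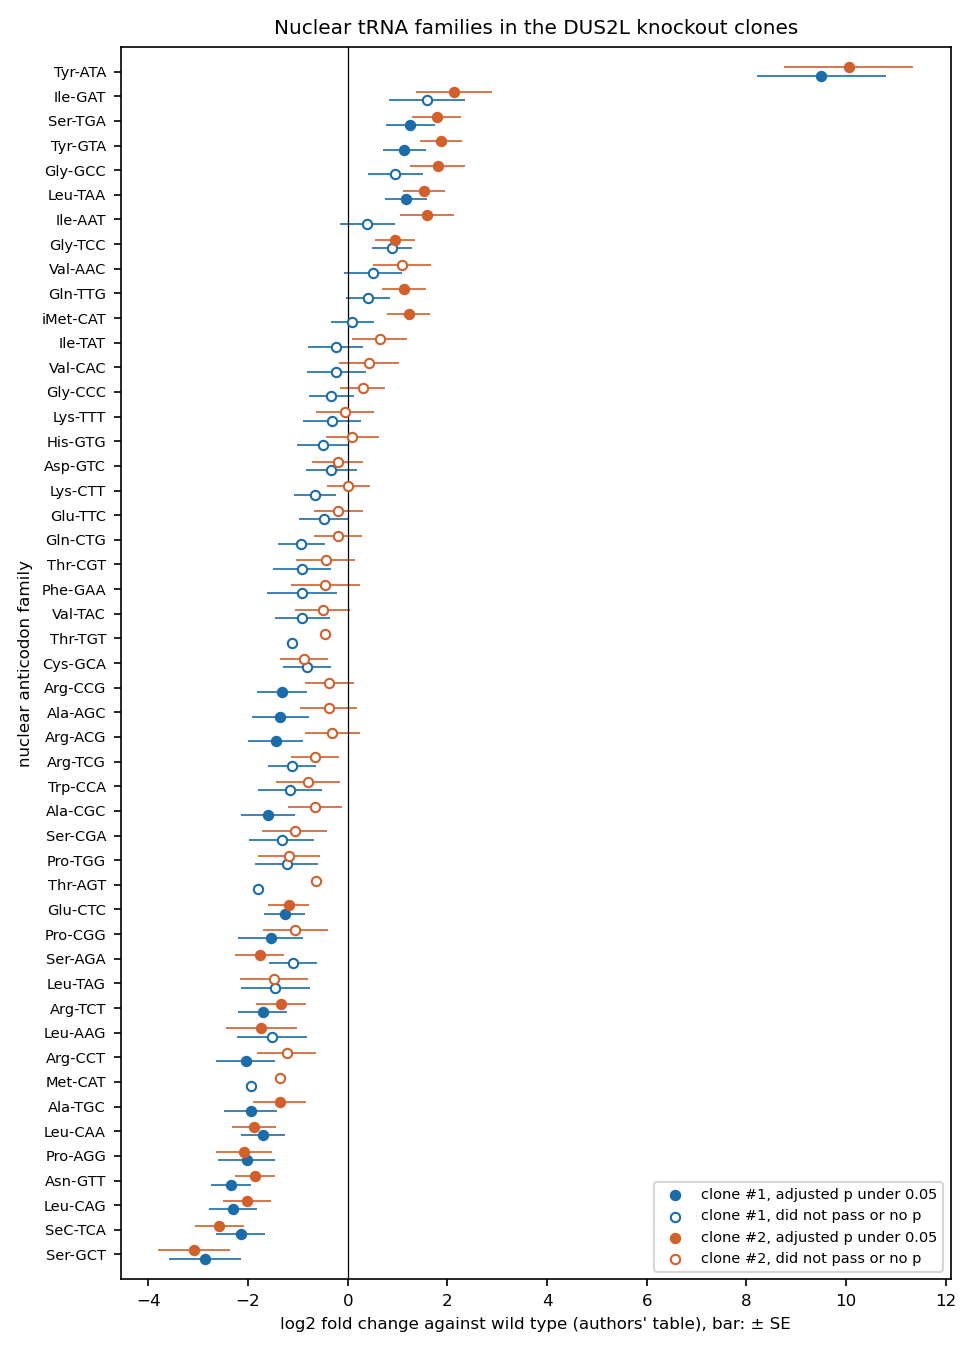
Log2 fold change against wild type of the 49 nuclear anticodon families (x axis, authors' values, bars are ± SE) in DUS2L clone #1 (blue) and clone #2 (orange), ordered by their sum over the clones. Filled points passed, open points did not pass or had no p. Ser-GCT sits at the bottom with -2.86 and -3.08, and Tyr-ATA, near 0 in the wild type, far to the right.

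The DUS1L clones were set against the same wild-type libraries, so their values are given side by side and not as a separate result. For SeC-TCA the log2 fold changes in the authors' deposited table for DUS1L were 1.95 and 1.21, where the DUS2L clones had -2.14 and -2.58. Leu-CAA stood at 2.06 and 0.90 in the DUS1L clones and -1.71 and -1.88 in the DUS2L clones of the authors' deposited tables, and Leu-CAG at 1.77 and 0.68 against -2.31 and -2.02. For Ser-GCT the DUS1L values were -0.23 and 0.04, and for Asn-GTT 1.61 and -0.22. Ser-TGA was at 1.22 and 1.24 in the DUS1L clones and Tyr-GTA at 0.83 and -0.35. For SeC-TCA, Leu-CAA and Leu-CAG the DUS1L values lay above 0 in both clones and the DUS2L values below, and no test of the difference was made. These DUS1L values passed in DUS1L clone #1 (adjusted p = 7.98e-04, 1.90e-04 and 0.00690) and not in DUS1L clone #2 (adjusted p = 0.188, 0.324 and 0.596).

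The levels were also set beside the other wild type of the series. Scaled to counts per 1000000 within each group, 2 of the 6 families higher in clone #1 were also above the wild type that the authors set against the DUS3L clones, and 6 of the 12 higher in clone #2. Of member families called lower, 7 of 18 in clone #1 and 10 of 17 in clone #2 were also below that other wild type. Ser-GCT, SeC-TCA, Leu-CAG and Leu-CAA were below both wild types in both clones, and Ser-GCT, for example, had 481 and 292 per 1000000 in the clones, 2259 in their own wild type and 3249 in the other. Asn-GTT was below its own wild type (15679.9 per 1000000, against 4788 and 4733 in the clones) but above the other one (3780.0). Ala-TGC, Arg-TCT and Glu-CTC, which fell in both clones, also lay above the other one, and Pro-AGG lay below both. Gly-GCC, higher in the clones than in their own wild type (76054 per 1000000, against 227363 and 291221), lay below the other one (520068). Among nuclear families that rose in both clones, Leu-TAA, Ser-TGA and Tyr-ATA lay below the other wild type in both clones. Ser-TGA, for example, had 780 and 795 per 1000000 against 2333. Tyr-GTA lay above both wild types. The tables were scaled separately, these levels have no test, and the part of the wild-type set in the results was not tested.

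Glycine tRNA held a larger share of the pool in both clones than in their own wild type, though a smaller one than the other wild type, as given for Gly-GCC above. Glycine isodecoders held 9.62%, 25.5% and 32.0% of all member counts in wild type, clone #1 and clone #2. Most of this was tRNA-Gly-GCC-1-2 (chr1:161450677-161450747 on GRCh38, in an intron of AL592295.3), which reads GGC and GGU codons and alone held 6.97%, 22.1% and 28.5%. Its level went from 213977 in the wild type to 437681 in clone #1 and 801319 in clone #2, with log2 fold changes of 1.03 ± 0.58 and 1.90 ± 0.58 in the authors' deposited table. It passed in clone #2 (adjusted p = 0.00289) and not in clone #1 (0.119). Arginine isodecoders, the largest isotype in the wild type, held 25.7%, 13.1% and 16.5%, and methionine isodecoders 4.95%, 1.98% and 2.11%. Asparagine isodecoders went to 0.480% and 0.474% from 1.57%, while isoleucine ones held 0.421%, 0.766% and 1.18% and tyrosine ones 0.0323%, 0.125% and 0.144%. The shares of glutamate and lysine moved less, with 12.4%, 12.7% and 10.9% for glutamate and 8.16%, 8.73% and 8.87% for lysine. Without tRNA-Gly-GCC-1-2, the summed level of the other 282 members changed by -0.89 and -0.51 on the log2 scale. Shares of a pool depend on each other and carry no test here.

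**Figure D2:**
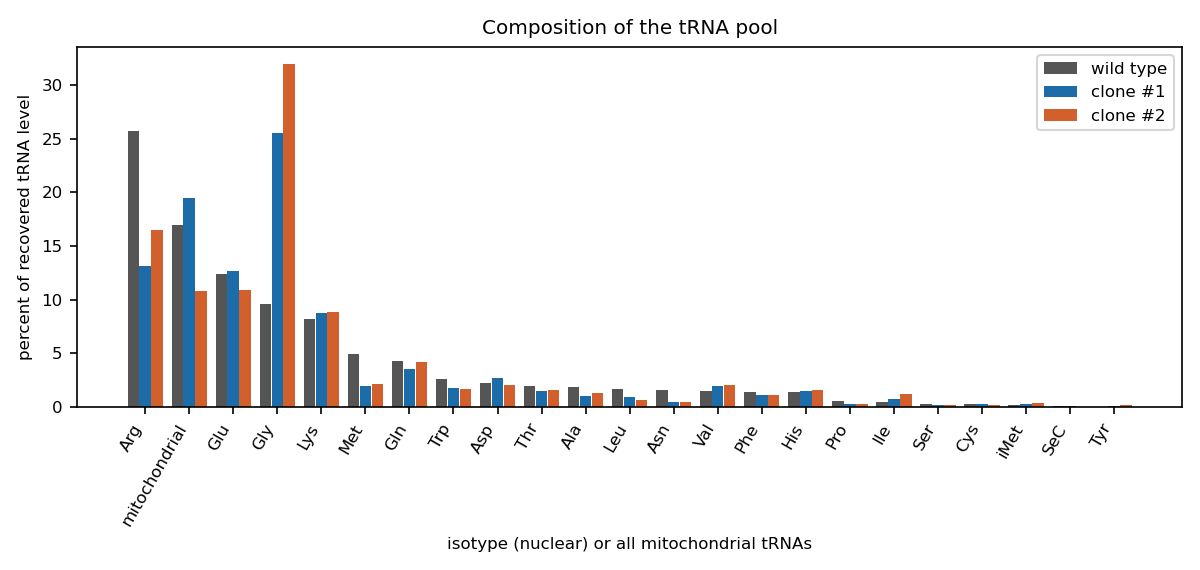
Percent of the summed recovered level held by each nuclear isotype and by all mitochondrial tRNAs in wild type (grey), clone #1 (blue) and clone #2 (orange). Glycine stands at 9.62%, 25.5% and 32.0%, and arginine at 25.7%, 13.1% and 16.5%.

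At the level of isodecoders, 276 rows had a p. In clone #1, 103 of them (37.3%) were lower than wild type and 46 (16.7%) higher, and in clone #2 the counts were 85 (30.8%) and 59 (21.4%), with 1 spike-in among the lower rows of each clone. Relative to the median nuclear isodecoder, 29 rows were lower against 73 higher in clone #1, and 47 against 78 in clone #2. Of the 261 nuclear entries, 251 had a p, 241 had an authors' mean of at least 10, and 36 had a recovered wild-type level under 10. Among nuclear entries, 97 fell and 44 rose in clone #1, while 77 fell and 57 rose in clone #2. Copies that differ by few bases share reads, and how such reads were assigned is not given in the sources used here, so that a single isodecoder's value is less certain than its family's.

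Of the 10 named decreases, which are the largest that passed in both clones, 4 were asparagine and 4 serine isodecoders. tRNA-Asn-GTT-24-1, the most abundant nuclear asparagine copy in the wild type, went from 11792 in the wild type to 784 in clone #1 and 1026 in clone #2, or -3.91 ± 0.53 and -3.52 ± 0.53 in the authors' deposited table (adjusted p = 5.27e-12 and 5.03e-10). tRNA-Asn-GTT-10-1 went from 1607 in the wild type to 59.2 in clone #1 and 16.3 in clone #2, and tRNA-Asn-GTT-12-1 from 2654 in the wild type to 136 in clone #1 and 118 in clone #2. tRNA-Asn-GTT-9-2 had levels of 2191, 173 and 207, with adjusted p of 2.04e-08 and 1.35e-07. Of 17 asparagine entries, 12 fell and 1 rose in clone #1, while 11 fell and 1 rose in clone #2, with medians of -1.74 and -1.99 on the log2 scale. Over all nuclear isodecoders the medians were -1.02 and -0.55, and over all rows with a p 37.3% and 30.8% were lower. The asparagine counts centred on the median nuclear isodecoder were 7 lower and 1 higher in clone #1 and 9 and 1 in clone #2. Of 18 serine entries, 6 fell and 1 rose in clone #1, while 10 fell and 2 rose in clone #2. The centred serine counts were 4 lower and 4 higher in clone #1 and 7 and 3 in clone #2.

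Among serine entries with a p and an authors' mean of at least 10, tRNA-Ser-CGA-2-1 fell most. Its levels were 205, 3.56 and 4.88 in wild type, clone #1 and clone #2 (adjusted p = 2.04e-10 and 4.42e-12). tRNA-Ser-CGA-1-1 also fell, at 651, 65.0 and 49.3 (adjusted p = 0.00125 and 2.60e-04). Of the Ser-GCT copies, tRNA-Ser-GCT-5-1 went from 933 in the wild type to 91.8 in clone #1 and 76.9 in clone #2 and tRNA-Ser-GCT-1-1 from 855 in the wild type to 92.5 in clone #1 and 69.6 in clone #2. The main Ser-GCT copy of the wild type, tRNA-Ser-GCT-2-1, had levels of 3069.8, 154 and 109.5 and no p. The Ser-CGA family as a whole did not pass in either clone (adjusted p = 0.0854 and 0.178), with levels of 1179.7, 470.2 and 565. A minor initiator copy, tRNA-iMet-CAT-2-1, went from 284 in the wild type to 26.4 in clone #1 and 15.0 in clone #2 (adjusted p = 1.36e-07 and 1.07e-11), unlike the main copy tRNA-iMet-CAT-1-8, whose levels were 4025, 4572 and 10026 and which rose in clone #2 (adjusted p = 0.711 and 0.00238). tRNA-Thr-TGT-4-1 was low throughout, at 84.2, 7.01 and 10.5, and passed as lower (adjusted p = 3.12e-05 and 1.49e-04).

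Ranked by fold change, an order that by itself favours low wild-type levels, rises were led by isodecoders that were scarce in the wild type. The authors' mean of at least 10 asked of named isodecoders also includes the clones. With a wild-type level of at least 10, and chosen after the values were seen, the largest was tRNA-Gly-CCC-3-1 (chr17:19860862-19860932, in an intron of ULK2), which went from 103 in the wild type to 17000.3 in clone #1 and 32850.4 in clone #2. In the authors' deposited table this was 7.37 ± 0.63 and 8.32 ± 0.63 (adjusted p = 1.31e-29 and 2.99e-38). The Gly-CCC family did not pass, at 56668, 45189 and 69767 in wild type, clone #1 and clone #2, while its main copy tRNA-Gly-CCC-2-1 had levels of 31831, 15341 and 24639. tRNA-Thr-CGT-3-1 went from 101 in the wild type to 3404 in clone #1 and 8214 in clone #2, and tRNA-Thr-CGT-5-1 from 39.6 in the wild type to 1512 in clone #1 and 2375 in clone #2. For tRNA-Ile-AAT-7-1 the levels were 47.1, 1398 and 2637, for tRNA-Gly-GCC-4-1 113, 3102 and 2379 and for tRNA-Leu-AAG-4-1 58.7, 1226 and 1502. All of these passed in both clones, with adjusted p of at most 1.84e-05. Smaller rises from a higher wild-type level were those of tRNA-Ile-AAT-3-1 and tRNA-Ala-AGC-6-1, both past the test in both clones. tRNA-Ile-AAT-3-1 went from 754 in the wild type to 5419.8 in clone #1 and 15882 in clone #2 and tRNA-Ala-AGC-6-1 from 766 in the wild type to 3093 in clone #1 and 6562 in clone #2.

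**Figure D3:**
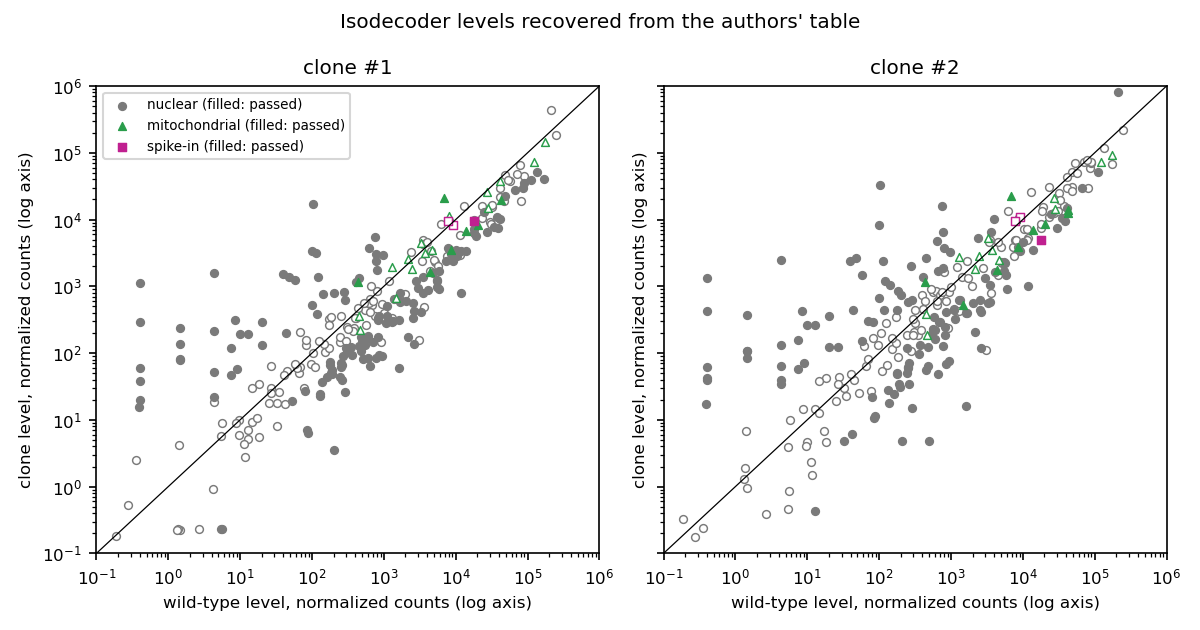
Recovered level of each isodecoder in the wild type (x axis) against clone #1 and clone #2 (y axes), in normalised counts on log axes. Circles are nuclear tRNAs, triangles mitochondrial tRNAs and squares spike-ins, and filled symbols passed. Most abundant tRNAs lie on or below the line of equal level. Of the nuclear tRNAs under 10 in the wild type, all 21 with an authors' mean of at least 10 lie above it. This follows largely from the filter, since that mean includes the clones. Of the 15 with an authors' mean under 10, 6 were above and 8 below the wild type in clone #1, and 4 and 11 in clone #2.

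A set of 19 nuclear isodecoders, chosen after their values were seen and therefore given without a test, had a wild-type level under 10, an authors' mean of at least 10 and a rise that passed in both clones. They include tRNA-Tyr-GTA-9-1, with levels of 0.402, 1126 and 1344 in wild type, clone #1 and clone #2, and tRNA-Lys-CTT-10-1, with 4.29, 1557 and 2464. tRNA-Tyr-ATA-1-1 had 0.402, 292 and 426, tRNA-Cys-GCA-11-1 1.45, 136 and 373, and tRNA-Cys-GCA-19-1 1.47, 234 and 108. Lower down were tRNA-Gln-CTG-7-1 with 1.45, 81.0 and 109, tRNA-Leu-CAA-5-1 with 1.45, 78.9 and 84.8, tRNA-Ala-AGC-16-1 with 0.401, 58.9 and 61.1 and tRNA-Lys-TTT-11-1 with 0.400, 38.7 and 39.1. At such wild-type levels almost no read was counted, so no fold is given for these.

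Per 1000000 counts of a group, the median of the 19 was 0.480 in the wild type, 40.8 in clone #1 and 38.3 in clone #2. In the DUS1L clones, set against the same wild type, it was 0.897 and 0.785, and all 19 were under 10 normalised counts in both. In the DUS3L experiment's wild type the median was 97.0, with all 19 above the wild type used for DUS2L and 17 at 10 per 1000000 or more, and in the DUS3L clones it was 42.8 and 34.1. The low wild-type and high DUS2L levels follow from how the 19 were chosen. Levels of the DUS1L and DUS3L tables did not enter the choice, apart from the wild type that DUS1L shares. A wild type picked near 0 by itself favours higher levels in another group, so that all 19 lay above it is not independent of the choice. Over the 193 nuclear isodecoders whose authors' mean reached 100, the median absolute log2 difference of (counts per 1000000 + 1) was 1.15 and 1.22 between the DUS2L clones and their own wild type. To the DUS3L experiment's wild type it was 0.655 and 0.643. For the DUS1L clones the order was the other way round, at 0.796 and 0.655 to their own wild type and 1.26 and 1.32 to the other. By this measure the DUS2L clones lay nearer to the wild type they had not been compared with, and the cause was not tested. The mean that set the 193 includes the DUS2L clones, so entries near 0 in their wild type could enter through the clones. How far this moved the distances was not tested.

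**Figure D4:**
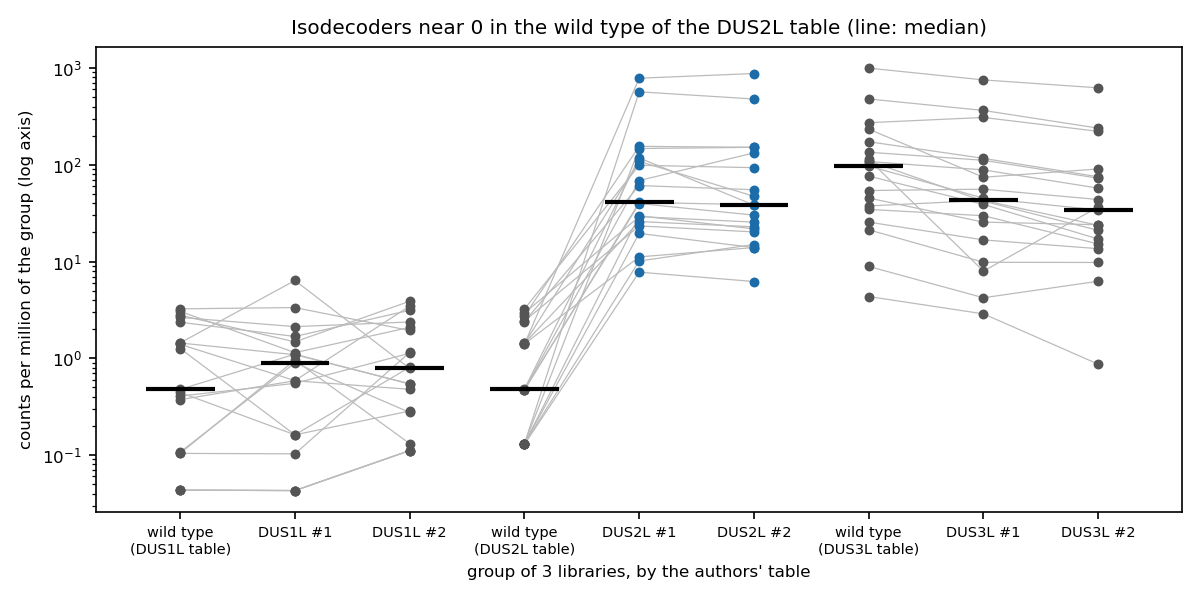
Counts per 1000000 (log axis) of the 19 nuclear isodecoders near 0 in the wild type set against the DUS2L clones, in the 9 groups of the 3 authors' tables. Points are isodecoders, grey lines join the same one within a table and black bars are medians. The DUS2L clones (blue) have medians of 40.8 and 38.3, next to 0.480 in their wild type and 97.0 in the DUS3L experiment's wild type.

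Within families, isodecoders moved apart. Of 45 families with at least 2 isodecoders at a wild-type level of 10 or more, 15 in clone #1 and 17 in clone #2 held calls in both directions among these isodecoders. The median range of their log2 fold changes within a family was 2.90 in clone #1 and 3.06 in clone #2. Main copies below were picked by their wild-type level, a choice that by itself favours a lower share in the clones. In Tyr-GTA, the main wild-type copy tRNA-Tyr-GTA-2-1 went from 482 in the wild type to 109 in clone #1 and 123 in clone #2 and held 48.6%, 4.99% and 3.41% of the family in wild type, clone #1 and clone #2. The rise of the family came with tRNA-Tyr-GTA-4-1, which went from 277 in the wild type to 819 in clone #1 and 1991 in clone #2, and with tRNA-Tyr-GTA-9-1 described above. In Leu-TAA, the main wild-type copy tRNA-Leu-TAA-1-1 held 40.2%, 5.02% and 3.28%, and the summed rest changed by 1.84 and 2.23 on the log2 scale. In Ile-AAT, tRNA-Ile-AAT-4-1 held 57.2%, 21.7% and 14.7%, and it did not pass (adjusted p = 0.242 and 0.698), whereas tRNA-Ile-AAT-3-1 rose. Other families kept 1 main copy, such as Arg-CCG, where tRNA-Arg-CCG-2-1 held 96.8%, 97.4% and 98.1%, and Lys-TTT, where tRNA-Lys-TTT-3-3 held 91.8%, 96.7% and 95.9%. Whether such exchanges inside a family also rest on how reads shared by near-identical copies were assigned was not tested.

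Few isodecoders differed between the clones in a direct test. Of 240 isodecoders tested with a wild-type level of at least 10, 2 differed between the clones (0.833%). tRNA-Asn-GTT-8-1 (chr1:149740248-149740321, in an intron of AC243772.3) went from 491 in the wild type to 147 in clone #1 and 4.78 in clone #2, and the difference of clone #2 from clone #1 was -4.94 ± 0.72 on the log2 scale (adjusted p = 1.46e-09, Wald test on the recovered dispersion). tRNA-Ala-AGC-8-2 went from 795 in the wild type to 1777 in clone #1 and 3802 in clone #2, a difference of 1.10 ± 0.31 (adjusted p = 0.0401). With fold changes centred on the median nuclear isodecoder, or with equal totals, tRNA-Asn-GTT-8-1 still differed and tRNA-Ala-AGC-8-2 did not, and tRNA-Asn-GTT-10-1, tRNA-Leu-TAG-1-1, MT-TN and the tyrosine spike-in then passed as lower in clone #2 than in clone #1. At an unadjusted p below 0.05 there were 34, of which 27 were higher in clone #2. Clone #2 lay above clone #1 in 194 of 260 nuclear isodecoders, next to summed levels of 2011080 in clone #1 and 2833430 in clone #2.

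The isotypes are described by counts, with no test between them, beside medians of -1.02 and -0.55 over all nuclear isodecoders. Over all rows with a p, 37.3% were lower and 16.7% higher in clone #1, and 30.8% and 21.4% in clone #2. Of 20 arginine entries, 15 fell and 2 rose in clone #1, while 7 fell and 3 rose in clone #2, and the median was -1.58 and -0.87. The arginine counts centred on the median nuclear isodecoder were 2 lower and 3 higher in clone #1 and 3 and 3 in clone #2. The most abundant were tRNA-Arg-ACG-2-1, at 134054, 51143 and 119466 in wild type, clone #1 and clone #2, and tRNA-Arg-CCT-4-1, at 171890, 40828 and 67719. Of 27 alanine entries, 14 fell and 6 rose in clone #1, while 10 fell and 6 rose in clone #2, with tRNA-Ala-AGC-4-1 at 27143, 6501 and 12483. The centred alanine counts were 6 lower and 6 higher in clone #1 and 2 and 8 in clone #2. Of 12 glycine entries, 2 fell and 5 rose in clone #1, while 2 fell and 6 rose in clone #2, and the median was 0.67 and 0.89, above 0 in both clones. The centred glycine counts were 0 lower and 7 higher in clone #1 and 0 and 7 in clone #2. Of 14 isoleucine entries, 2 fell and 4 rose in clone #1, while 1 fell and 6 rose in clone #2, with a median of 0.08 and 0.69, and the centred counts were 0 lower and 7 higher in clone #1 and 0 and 7 in clone #2. Of 18 lysine entries, 5 fell and 6 rose in clone #1, while 5 fell and 8 rose in clone #2, and tRNA-Lys-TTT-3-3, abundant in every group with 77668, 65887 and 78054, did not pass (adjusted p = 0.768 and 0.991). Of 23 cysteine entries, 7 fell and 3 rose in clone #1, while 6 fell and 3 rose in clone #2, while their median was -1.01 and -0.59. Of 17 threonine entries, 4 fell and 3 rose in clone #1, while 2 fell and 5 rose in clone #2, and of 16 valine entries, 4 fell and 1 rose in clone #1, while 2 fell and 1 rose in clone #2. The centred counts were 2 lower and 8 higher in clone #1 and 1 and 8 in clone #2 for lysine and 1 lower and 3 higher in clone #1 and 4 and 3 in clone #2 for cysteine. For threonine they were 2 lower and 5 higher in clone #1 and 2 and 5 in clone #2, and for valine 0 lower and 3 higher in clone #1 and 2 and 6 in clone #2. Of 3 aspartate entries 1 fell in clone #1, and tRNA-Asp-GTC-2-8 stood at 48791, 46100.1 and 50661 (adjusted p = 0.898 and 0.933).

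Lists that cut across isotypes were the class II tRNAs, the starting base of the anticodon and the queuosine families. Class II tRNAs (leucine, serine and selenocysteine) have a long variable arm, and of 39 entries, 16 fell and 5 rose in clone #1, while 21 fell and 6 rose in clone #2. Over all rows with a p the shares were 37.3% lower and 16.7% higher in clone #1, which is near the class II share there, and 30.8% and 21.4% in clone #2. Their median was -1.49 and -1.87, and -1.59 and -1.90 over those with an authors' mean of at least 100, where all nuclear isodecoders had -1.12 and -0.64. Of the 10 class II families, 4 fell and 2 rose in clone #1, while 6 fell and 2 rose in clone #2, with medians of -1.48 and -1.75 against -1.10 and -0.45 for all 49 nuclear families. Centred on the median isodecoder, 7 of the 39 were lower against 9 higher in clone #1, and 17 against 8 in clone #2. tRNA-Leu-AAG-2-4, the most abundant of them, went from 30063 in the wild type to 9274 in clone #1 and 7545 in clone #2 and passed in clone #2 (adjusted p = 0.0599 and 0.0261).

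The queuosine families (Tyr-GTA, His-GTG, Asn-GTT and Asp-GTC) hold 29 entries, of which 15 fell and 3 rose in clone #1, while 13 fell and 4 rose in clone #2. Their medians were -1.42 and -1.29, and asparagine entries made up 12 of the 15 that fell in clone #1 and 11 of the 13 in clone #2. The centred counts of the list were 8 lower and 4 higher in clone #1 and 11 and 4 in clone #2, and the shares over all rows are those given for class II. tRNA-His-GTG-1-1, the only histidine entry, stood at 41280.1, 29295 and 44074 and did not pass (adjusted p = 0.445 and 0.895). By the starting base of the anticodon, medians in clone #1 and clone #2 were -0.81 and -0.03 for A (51 entries), -1.03 and -0.57 for C (72 entries), -1.18 and -0.99 for G (69 entries) and -0.66 and -0.30 for T (68 entries). Of entries starting with G, 27 fell and 8 rose in clone #1, while 25 fell and 12 rose in clone #2. Of those starting with A, 16 fell and 11 rose in clone #1, while 15 fell and 12 rose in clone #2, and tRNA-Arg-ACG-1-2, among the most abundant of them, had levels of 86790.4, 30144 and 58793. Of entries starting with C, 28 fell and 12 rose in clone #1, while 15 fell and 14 rose in clone #2. Of those starting with T, 26 fell and 13 rose in clone #1, while 22 fell and 19 rose in clone #2. Over all rows with a p, 37.3% and 30.8% were lower and 16.7% and 21.4% higher, and the starting base was not tested. The centred counts were 11 lower and 12 higher in clone #1 and 19 and 12 in clone #2 for G, and 3 lower and 14 higher in clone #1 and 8 and 17 in clone #2 for A. For C they were 5 lower and 18 higher in clone #1 and 9 and 20 in clone #2, and for T 10 lower and 22 higher in clone #1 and 10 and 22 in clone #2.

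Mitochondrial tRNAs are transcribed inside the organelle from both strands of its genome and serve its own ribosomes. They held 16.9%, 19.5% and 10.8% of the member counts in wild type, clone #1 and clone #2. The copies whose family rows passed in both clones are printed with the anticodon in capitals, from GENCODE v29 transcripts on GRCh38.
MT-TP (chrM:15956-16023, strand minus): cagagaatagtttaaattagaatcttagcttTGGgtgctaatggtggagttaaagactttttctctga
MT-TS1 (chrM:7446-7514, strand minus): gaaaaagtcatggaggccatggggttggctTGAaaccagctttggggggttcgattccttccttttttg
MT-TD (chrM:7518-7585, strand plus): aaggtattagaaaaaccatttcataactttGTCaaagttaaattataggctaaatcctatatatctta
MT-TF (chrM:577-647, strand plus): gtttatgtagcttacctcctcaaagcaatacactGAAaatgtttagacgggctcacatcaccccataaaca
MT-TL1 (chrM:3230-3304, strand plus): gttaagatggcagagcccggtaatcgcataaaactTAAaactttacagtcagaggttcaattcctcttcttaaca

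Of the 22 in the family table, 3 fell and 2 rose in clone #1, while 6 fell and 2 rose in clone #2, with medians of -0.35 and -0.83. Over all family rows, 26.8% were lower and 8.45% higher in clone #1, and 25.4% and 16.9% in clone #2. The mitochondrial counts centred on the median nuclear family were 0 lower and 6 higher in clone #1 and 0 and 4 in clone #2, so that no fall passed. The proline tRNA MT-TP went from 6876 in the wild type to 21099 in clone #1 and 22816 in clone #2, with 1.62 ± 0.45 and 1.73 ± 0.45 in the authors' deposited table and adjusted p of 0.00290 and 0.00109. MT-TS1, the serine tRNA that reads UCN codons, went from 431 in the wild type to 1176 in clone #1 and 1152 in clone #2 (adjusted p = 0.0299 and 0.0256). Both were higher in each clone than in the wild type by similar amounts. MT-TD for aspartate went from 4378 in the wild type to 1620.5 in clone #1 and 1730.4 in clone #2 (adjusted p = 0.0328 and 0.0380), and MT-TF for phenylalanine from 20411 in the wild type to 8162 in clone #1 and 8471 in clone #2 (adjusted p = 0.0468 and 0.0468). MT-TL1, the leucine tRNA for UUR codons, went from 8595 in the wild type to 3510.2 in clone #1 and 3888 in clone #2 (adjusted p = 0.0214 and 0.0306). MT-TH, MT-TN and MT-TC passed as lower in clone #2 alone in the family table. In the isodecoder table, where the fold changes are the same and the p-values differ, 5 fell in clone #1 and 7 in clone #2, and MT-TH (adjusted p = 0.0469 and 0.00291) and MT-TL2, the leucine tRNA for CUN codons (adjusted p = 0.0261 and 0.0424), passed as lower in both clones. MT-TH levels were 42377, 19846 and 13931, those of MT-TL2 14051, 6660.1 and 7086, and MT-TN had 41959, 37416 and 12512 in wild type, clone #1 and clone #2. The difference between clones for MT-TN had an unadjusted p of 0.00702 and did not pass (adjusted p = 0.278), but passed when centred (adjusted p = 0.00502) and with equal totals (adjusted p = 0.0134).

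The most abundant mitochondrial tRNAs in the wild type, MT-TE and MT-TV, did not pass. MT-TE, for glutamate, had levels of 176585, 144003 and 93817 in wild type, clone #1 and clone #2 (adjusted p = 0.643 and 0.122), and MT-TV, for valine, 121017, 71910.3 and 71582 (adjusted p = 0.233 and 0.232). MT-TK, for lysine, had 26962, 26118 and 21126 (adjusted p = 0.926 and 0.620). By transcript, of the 8 light-strand tRNAs 0 fell and 2 rose in clone #1, while 2 fell and 2 rose in clone #2, with medians of 0.04 and -0.17. Of the 14 heavy-strand tRNAs 3 fell and 0 rose in clone #1, while 4 fell and 0 rose in clone #2, with medians of -0.84 and -0.93. The centred counts were 0 lower and 4 higher in clone #1 and 0 and 2 in clone #2 for the light strand, and 0 lower and 2 higher in clone #1 and 0 and 2 in clone #2 for the heavy strand. On the authors' scaling, 5 heavy-strand tRNAs fell in each clone of the isodecoder table. Both tRNAs that rose on that scaling were light-strand transcripts, and the difference between the strands was not tested. Per 1000000 counts, MT-TP was at 2239.8 in the wild type, 10636 and 8124 in the clones and 8076 in the DUS3L experiment's wild type, and MT-TS1 at 140.4, 593, 410.1 and 815. For MT-TP the other wild type lay close to clone #2, and for MT-TS1 it lay above both clones.

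**Figure D5:**
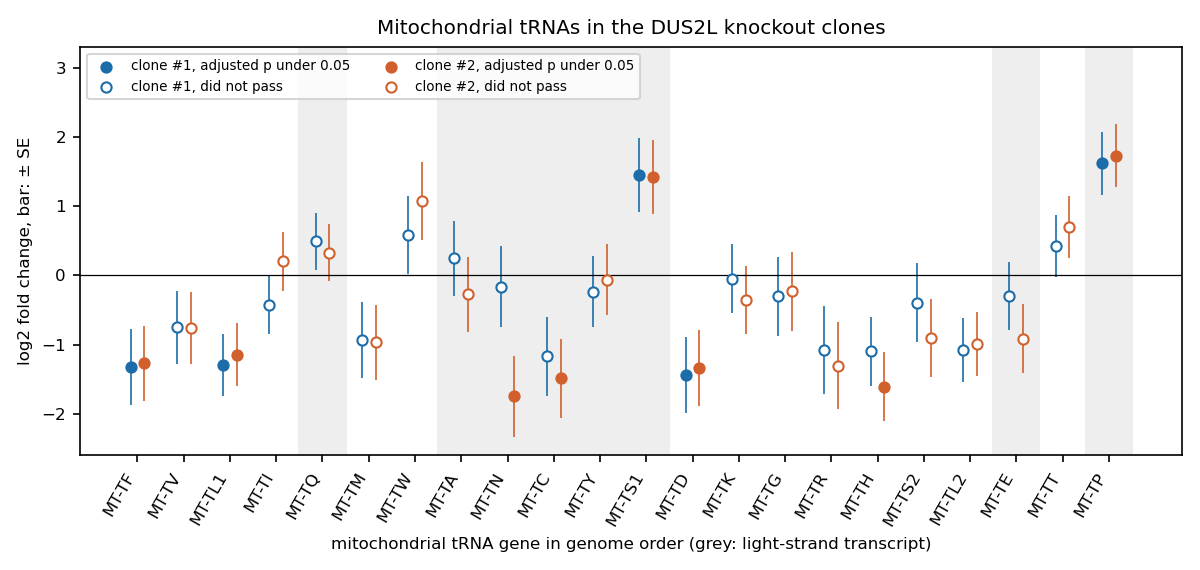
Log2 fold change against wild type (y axis, authors' values, bars are ± SE) of the 22 mitochondrial tRNAs in genome order for clone #1 (blue) and clone #2 (orange). Filled points passed and grey bands mark light-strand transcripts. MT-TP (1.62 and 1.73) and MT-TS1 (1.45 and 1.42) stand above 0 in both clones, and MT-TF, MT-TL1 and MT-TD below.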

How the data were processed

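Transfer RNA was gel-isolated from TRIzol-extracted total RNA of HEK293T cells and made into libraries with a small RNA kit, per the labels' protocols. The tools STAR, featureCounts, fastp and DESeq2 and the build hg38 appear in the submitters' processing notes, without versions or roles. Trimming, treatment of reads matching several tRNA genes and scaling are not given in the sources used here, and each could move single isodecoders.

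Per the file headers, the authors deposited, for each row, the mean of normalised counts (a signal that is never negative), the log2 fold change of clones #1 and #2 against wild type, and its unadjusted p-value. The authors' p-values were adjusted here by the Benjamini-Hochberg method over all rows with a p, spike-ins included, with a threshold of 0.05. A wild-type level was obtained as the mean times 3, divided by 1 plus both linear fold changes, which takes the 3 groups to have equal numbers of libraries. Dividing a fold change by the normal deviate of its p gave its SE, and from the SE a dispersion followed. Taken from clone #1, that dispersion foretold clone #2 SEs to a median absolute log2 error of 0.00314 over 240 isodecoders. Clones were compared by a two-sided Wald test on the recovered levels and dispersion, for wild-type levels of at least 10. These steps were run on simulated tables built with the same formulas, which cannot show that the authors' values follow them. The work was done with scipy 1.17.1, pandas 2.3.3, numpy 2.4.6 and matplotlib 3.10.9 in Python 3.11.15.

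Named tRNAs were those passing in both clones in 1 direction (up to 12 families, and up to 10 isodecoders whose authors' mean reached 10), Tyr-GTA and iMet-CAT, with the order set by the smaller change, up to 5 past the test between clones, and up to 3 of highest mean per list. The members and lists were chosen with earlier results of these data known. Other isodecoders named beside their family or sequence were chosen after their values were seen. Sequences came from GENCODE v29 transcripts and the RefSeq promoter table of GRCh38.p14, and gene positions from RefSeq, for 245 of 261 nuclear entries. A position given may be that of 1 among identical genes. Lists by the base at position 20, by introns and by mismatches to the nearest copy were not run, since 13 of 261 nuclear sequences were read. Alternatives were other references, thresholds and filters.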

Additional observations from a re-analysis of the deposited data

Results flagged for a closer look

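The values of 2 isodecoders stood apart because their changes against the shared wild type differed between the DUS2L clones in a direct test. For tRNA-Asn-GTT-8-1 the log2 difference of clone #2 from clone #1 was -4.94 ± 0.72 (SE), with levels of 491, 147 and 4.78 in wild type, clone #1 and clone #2. For tRNA-Ala-AGC-8-2 the difference was 1.10 ± 0.31, with levels of 795, 1777 and 3802. Centred on the median nuclear isodecoder, or with equal totals, tRNA-Ala-AGC-8-2 no longer passed and tRNA-Asn-GTT-8-1 did, at -5.42 and -5.45. How reads shared with other copies of their families were assigned was not tested.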

How the results depend on the processing

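Of 90 alternative counts, 65 stayed within 1.5 times the main count and 25 did not, and the counts include spike-in rows. Centred on the median nuclear row, clone #1 had 73 higher isodecoders against 29 lower and 19 higher families against 3 lower, clone #2 had 47 isodecoders and 8 families lower, and 5 isodecoders and 2 families differed between clones. With equal totals of member counts, a choice made after seeing the data, 46 isodecoders were lower in clone #1, 10 families higher and 4 lower there, and 5 isodecoders and 2 families differed between clones. With the spike-in mean as reference, 51 isodecoders were lower in clone #2, and 9 families in clone #1 and 8 in clone #2. At an adjusted p of 0.01, 56 isodecoders were lower in clone #2, 1 differed between clones, and 2 families were higher against 9 lower in clone #1 and 6 against 9 in clone #2. With a recovered wild-type level of at least 10, chosen after seeing the data, 27 and 39 isodecoders were higher in clones #1 and #2. This filter leaves out the 36 nuclear entries under 10 in the wild type, of which 19 and 20 had been called higher. With the root of the summed squared SEs, 1 isodecoder differed between clones. Where the construction does not show it, the cause was not tested. A fold change of at least 1 on the log2 scale, means of at least 10 or 100, and leaving out the spike-in rows (chosen after seeing the data) moved no count beyond 1.5 times.

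No paired analysis was possible because the deposited tables hold no values per library, and for the same reason each library stayed in. The depth per library is unknown. Isodecoders near 0 in the wild type have no bounded fold change.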
